A study of Mus musculus with 6 samples.

Results

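Complex I, the NADH:ubiquinone oxidoreductase of the mitochondrial inner membrane, was followed here through its nuclear-encoded subunits and assembly factors in mouse retina at embryonic day 14.5. Members were chosen by gene symbol alone: all Nduf genes of the a, b, c, s, v, ab and af series except Ndufa4, which belongs to cytochrome c oxidase, together with Acad9, Ecsit, Foxred1, Nubpl, Timmdc1, Tmem126b and Tmem186. This gave 50 of the 23441 genes in the count table, of which 36 encode subunits and 14 encode assembly factors. Ndufb1, a subunit of the distal membrane arm, was not found under that symbol and is not among them. The series holds 3 CKO and 3 control libraries of polyadenylated retinal RNA. CKO retinae carried homozygous floxed Ronin (Thap11) alleles and a Cre::GFP transgene that the labels give as specific to RPC (retinal progenitor cells). Control retinae carried the floxed alleles without the transgene, and both genotypes were on a background mixed from FVB, SJL/B6, C57/B6 and 129/Sv. The labels do not say whether replicates were separate animals, litters or pools, so p-values speak only of how these libraries vary, and part of that variation may be technical. Since whole retinae were used, fewer cells of a type and less RNA per cell cannot be told apart.

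Complex I takes electrons from NADH through a flavin and a chain of iron-sulfur clusters to ubiquinone and couples this to proton pumping. Its N module oxidises NADH, its Q module reduces ubiquinone, and its membrane arm, with a proximal and a distal part, moves protons. Assembly factors build these modules stepwise and then leave, among them the mitochondrial complex I assembly (MCIA) group that helps build the membrane arm. Ronin is a zinc finger protein that occupies promoters with a long conserved motif, which ZNF143 also binds, and genes of mitochondrial energy metabolism are among its known targets. The comparison therefore asks whether transcripts of complex I depend on Ronin in the embryonic retina.

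The libraries held between 23721052 and 28504391 counted reads. Thap11 stood at 11.2, 10.9 and 6.38 CPM (read counts scaled to 1000000 per library) in CKO replicates 1 to 3, against 68.3, 82.0 and 71.6 CPM in control replicates 1 to 3, so its log2 fold change was -2.96 ± 0.24 (SE, adjusted p = 0.00425). Here and below p-values are from edgeR's quasi-likelihood F test and adjusted after Benjamini and Hochberg over all genes tested. At an adjusted p under 0.05, 131 of 14609 tested genes (0.897%) were called, 28 higher and 103 lower in the CKO. Without 1 library the count was 41 (CKO replicate 1), 53 (CKO replicate 2), 16 (CKO replicate 3), 97 (control replicate 1), 219 (control replicate 2) or 33 (control replicate 3). The 9 retinal progenitor markers summed to between 3137 and 3283 CPM in the CKO and between 3083 and 3457 CPM in the controls. The 14 lens markers summed to 9844, 64.2 and 708 CPM in CKO replicates 1 to 3, against 19.2, 11.9 and 12.8 CPM in control replicates 1 to 3, and the part of lens RNA in the results was not tested.

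No complex I gene passed the test. Of 49 members with enough reads, 0 were called higher and 0 lower in the CKO, where 0.192% and 0.705% of all tested genes were called in these directions. At an unadjusted p under 0.05 edgeR called 0 members, against 6.58% of all tested genes, and DESeq2's Wald test and limma-voom called 0 members at either threshold. The smallest adjusted p among members was 0.896. Log2 fold changes lay between -0.77 and 0.39, with 20 positive and 29 negative, and 39 of 49 were within 0.25 of 0. Of the 14609 tested genes 8040 were negative, and their share within 0.25 is not given. The signs were 30 positive and 19 negative without control replicate 1, 14 positive and 35 negative without control replicate 3, and 29 positive and 20 negative with libraries scaled by their totals. The median was -0.04 for the 35 tested subunits and 0.04 for the 14 assembly factors, beside -0.03 for all tested genes. The subunit median was 0.11 without control replicate 1, -0.15 without control replicate 3 and 0.02 with libraries scaled by their totals, and the assembly factor median was -0.0083 without control replicate 3. No member was called without any 1 of the 6 libraries, although 10 members fell under an unadjusted p of 0.05 without control replicate 1, 6 without control replicate 3 and 3 without control replicate 2. The share of all tested genes under this p is not given for these fits, so the counts do not set complex I apart from other genes.

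A p above the threshold does not show that levels were alike, so the 95% interval of each difference was examined. For 40 of 49 members the interval lay within 1 log2 unit of 0, that is, within 2-fold in either direction, compared with 77.0% of all tested genes. These were 26 of 35 subunits and all 14 assembly factors. The other 9 members, Ndufa2, Ndufs6, Ndufs7, Ndufa13, Ndufa3, Ndufb7, Ndufa1, Ndufb2 and Ndufb4, had intervals that reached beyond a 2-fold difference. An interval that excluded a 2-fold fall was found for 43 of 49 members, a count given without its share over all tested genes.

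**Figure D1:**
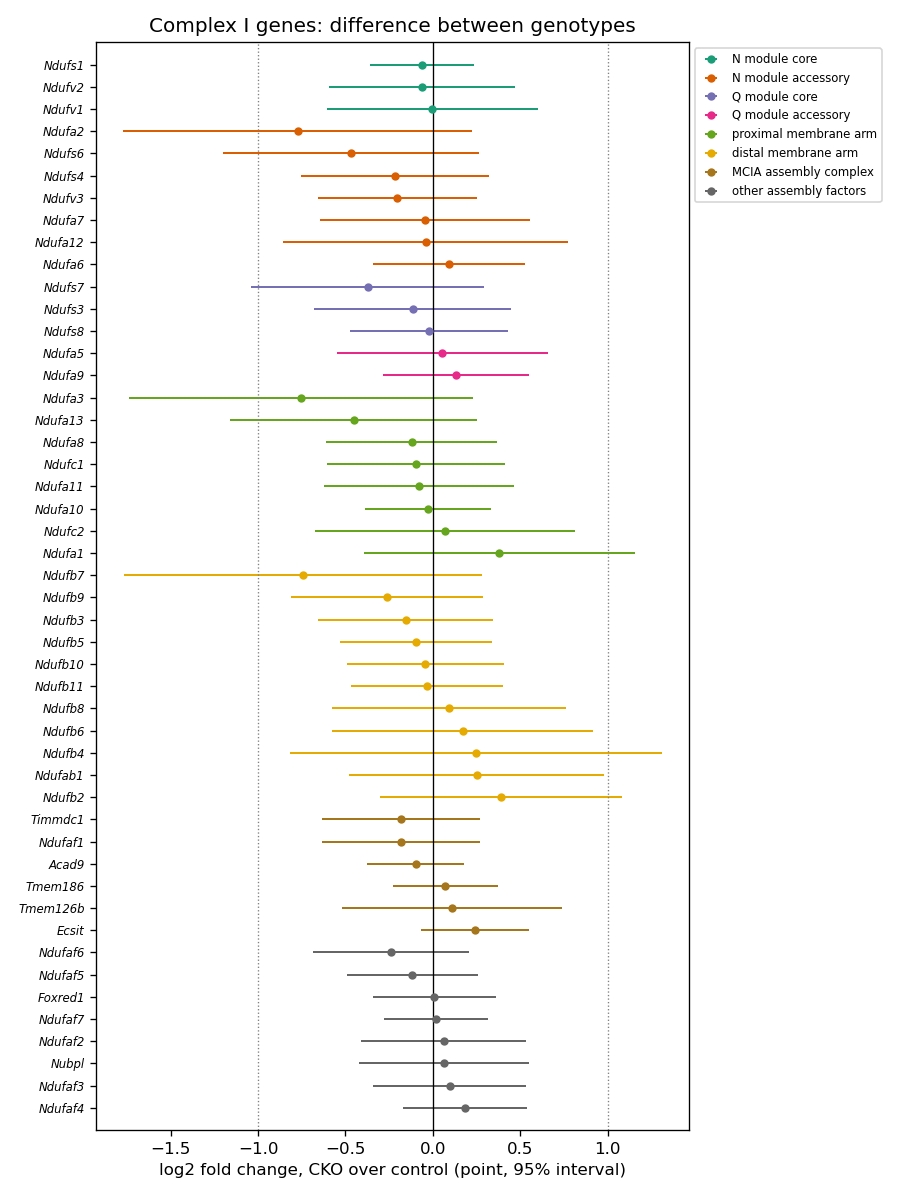
Log2 fold change of 48 of the 49 tested complex I genes, CKO over control, with its 95% interval, grouped and coloured by module. Dotted lines mark 2-fold differences. Every interval includes 0, and 9 reach beyond a dotted line.

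Levels between genes were compared per kilobase of transcript, with lengths from the GENCODE M21 annotation. Subunit transcripts spanned a wide range although each subunit but the acyl carrier protein Ndufab1 is present once in the complex. Ranked by the mean of both genotypes, Ndufb8, a distal membrane arm subunit, was highest at 132 ± 10.5 CPM per kilobase in the CKO and 124 ± 56.5 in the controls (SD, n = 3 per group). Ndufa2, an N module subunit with a thioredoxin-like fold, was among the highest at 73.1 ± 4.19 CPM per kilobase in the CKO and 125 ± 85.1 in the controls. In the CKO every library held Ndufb8 above Ndufa2, whereas in the controls they did not differ beyond their spread. At the low end stood Nubpl, an assembly factor that helps insert iron-sulfur clusters, at 1.33 ± 0.028 CPM per kilobase in the CKO and 1.27 ± 0.222 in the controls. Ndufb4 was at 5.60 ± 0.215 CPM per kilobase in the CKO and 4.71 ± 3.23 in the controls, and Ndufab1 was at 7.14 ± 0.835 and 5.99 ± 2.52 CPM per kilobase in CKO and control. All assembly factors ranked below the 29 most abundant subunits per kilobase.

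**Figure D2:**
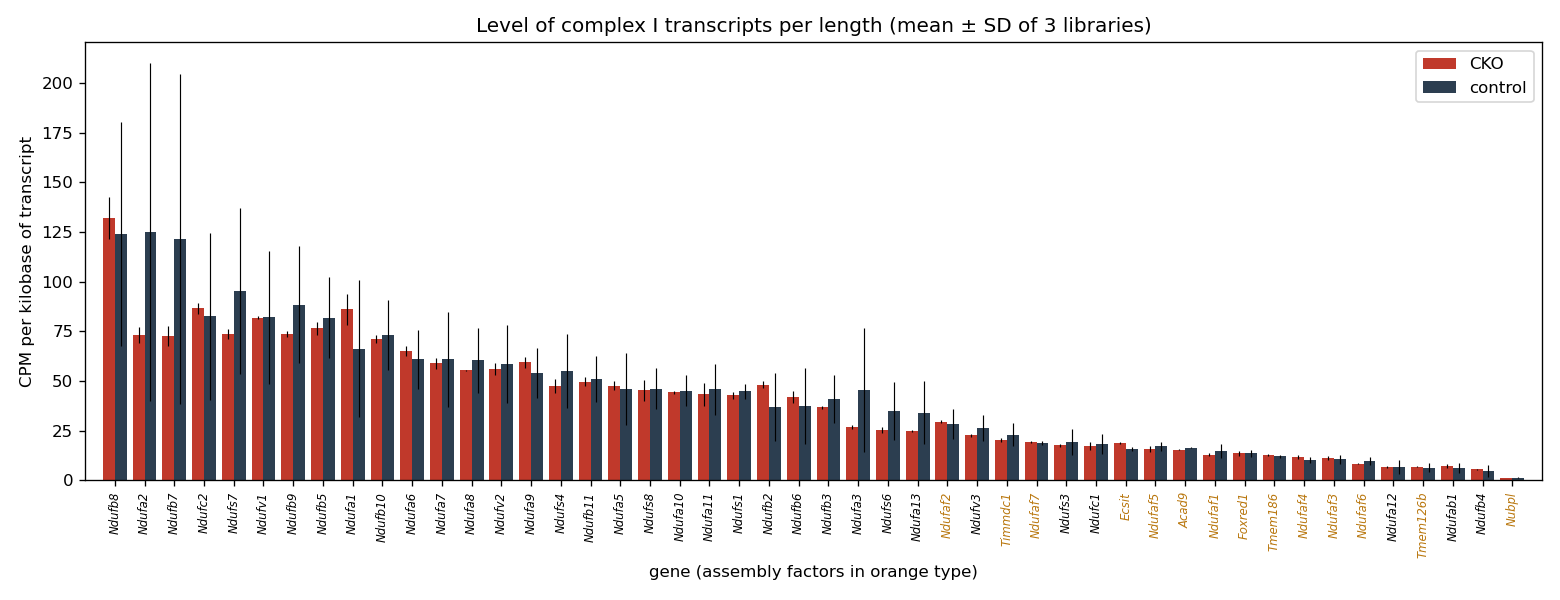
CPM per kilobase of transcript for 48 of the 49 tested complex I genes, ordered by level, with the CKO bar left of the control bar and error bars giving the SD of 3 libraries. Ndufb8 stood at 132 in the CKO, Ndufa2 at 125 and Ndufb8 at 124 in the controls, Nubpl was lowest in both, and most control error bars are the longer ones.

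Members that share sequence with other annotated genes have uncertain levels, since reads can be divided or discarded between the genes. Stretches were matched on either strand, so overlapping genes can count as well as near-identical copies. Ndufs5, a subunit of the proximal membrane arm, had 0, 0 and 1 read in CKO replicates 1 to 3 and 0 reads in each control, and was the member left untested. Of its 50-base stretches 41.2% also occur in BC002163, which GENCODE annotates as a processed pseudogene. BC002163, singled out after its values were seen, had 495, 416 and 445 reads in CKO replicates 1 to 3 and 654, 391 and 320 reads in control replicates 1 to 3 (log2 fold change -0.11 ± 0.26, SE, edgeR adjusted p = 0.962). Among the low members, 37.0% of the stretches of Ndufb4, 31.2% of those of Ndufab1 and 26.2% of those of Ndufa12 are shared with other annotated genes, and 15 of the 50 members share more than 10%. The part of shared sequence in these levels was not tested.

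The N module holds the entry of electrons. Ndufv1, which binds NADH and the flavin, stood at 136, 135 and 137 CPM in CKO replicates 1 to 3, against 110.3, 200.0 and 98.5 CPM in control replicates 1 to 3. The CKO libraries lay close together inside the range of the controls, of which replicate 2 was high. Its log2 fold change was -0.0045 ± 0.26 (SE, 95% interval -0.61 to 0.60, edgeR adjusted p = 0.999). Without control replicate 2 the difference was 0.39 ± 0.09 (SE, edgeR adjusted p = 0.135). Ndufs1, the largest subunit, with several iron-sulfur clusters, averaged 111 ± 4.88 CPM in the CKO and 116 ± 10.4 CPM in the controls (SD, n = 3 per group). Its log2 fold change was -0.06 ± 0.13 (SE, 95% interval -0.36 to 0.23, edgeR adjusted p = 0.959). Ndufv2, an iron-sulfur subunit beside Ndufv1, was at 95.1 ± 5.39 CPM in the CKO and 99.3 ± 33.7 CPM in the controls.

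Ndufv1 was the sole member whose promoter window, 250 bases before to 50 bases after the RefSeq start held the long Ronin and ZNF143 motif, searched on both strands. Windows were matched by symbol for 44 of the 50 members. In the 250 bases before its start (chr19:4012756-4013005, minus strand, GRCm38.p6, from RefSeq), which are shown because they carry this match, the motif is in capitals, of which the 2 letters after ACTACA were free in the search, and begins 105 bases before the start.
Ndufv1: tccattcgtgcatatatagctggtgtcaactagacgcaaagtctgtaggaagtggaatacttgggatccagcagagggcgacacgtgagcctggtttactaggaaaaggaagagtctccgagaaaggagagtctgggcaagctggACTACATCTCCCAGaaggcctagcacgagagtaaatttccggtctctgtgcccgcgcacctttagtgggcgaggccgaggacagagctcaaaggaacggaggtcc

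The motif was in the window of 2.27% of the members and of 2.53% of the 10704 tested genes with a window. Of the 271 tested genes with it, 40 (14.8%) were called lower in the CKO, against 0.412% of the tested genes without it, and Ndufv1 was not among those called. A shorter form, which lacks the last letter, leaves the 3 letters after ACTACA free and so takes in every match of the longer form, added Tmem186, an MCIA factor. This form was in the window of 4.55% of the members and of 4.12% of the tested genes with a window. Of the 441 tested genes with it, 65 (14.7%) were called lower in the CKO, against 0.175% of those without it, and Tmem186 was not among those called. A second window of Tmem186 (chr16:8637498-8637747, minus strand, GRCm38.p6, from RefSeq) held this form 127 bases before the start, the palindromic NRF1 motif, of fixed letters, 56 bases before it and an ETS motif (CCGGAAGT, here on the other strand) 221 bases before it. It is shown with the 3 matches in capitals, because it joins the Ronin motif to those of regulators known for respiratory chain genes. The distances hold for this RefSeq start only. Another window of Tmem186, from a start further upstream, held an ETS match 7 bases before that start and neither other motif.
Tmem186: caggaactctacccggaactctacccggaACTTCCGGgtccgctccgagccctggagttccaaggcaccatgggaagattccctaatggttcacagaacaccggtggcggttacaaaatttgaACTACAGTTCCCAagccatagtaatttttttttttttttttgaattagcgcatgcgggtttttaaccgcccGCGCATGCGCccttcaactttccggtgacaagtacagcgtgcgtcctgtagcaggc

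Tmem186 stood at 41.9, 44.1 and 43.2 CPM in CKO replicates 1 to 3 and at 37.6, 43.5 and 41.8 CPM in control replicates 1 to 3, so that the genotypes overlapped (log2 fold change 0.07 ± 0.13, SE, 95% interval -0.23 to 0.37, edgeR adjusted p = 0.958). The NRF1 motif was found in the windows of 4 members (Ndufa11, Tmem186, Ndufaf4 and Ndufaf5), 9.09% of those with a window and 2.22% of tested genes with a window, and the ETS motif in 3 members (Ndufs3, Timmdc1 and Tmem186), 6.82% against 8.25%. Of the 238 tested genes with the NRF1 motif 0 were called lower, against 0.793% of the tested genes without it, a share too small for the 0 to mark a difference. A match describes the letters of a window and not the binding of a factor.

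Among the accessory subunits of the N module, 6 of 7 had negative log2 fold changes, with a median of -0.20, and 0 passed the test. Without control replicate 1 the count was 3 of 7 with a median of 0.08, and without control replicate 3 it was 7 of 7 with a median of -0.34. Ndufa2 was at 44.6, 40.1 and 40.7 CPM in CKO replicates 1 to 3 and at 55.9, 126 and 32.5 CPM in control replicates 1 to 3. The CKO values lay between the lowest and the highest control, and control replicate 2 was 3.88-fold above control replicate 3. The log2 fold change was -0.77 ± 0.43 (SE, 95% interval -1.77 to 0.23, edgeR adjusted p = 0.898). It was -0.92 without control replicate 1, -0.07 without control replicate 2 and -1.08 without control replicate 3, the last under an unadjusted p of 0.05. Ndufs6, a zinc-binding subunit needed late in assembly, averaged 14.3 ± 0.785 CPM in the CKO and 19.9 ± 8.38 CPM in the controls. Ndufs4, at 80.6 ± 5.71 and 93.7 ± 31.6 CPM, Ndufv3, at 35.9 ± 1.07 and 41.3 ± 10.4 CPM, Ndufa6, at 38.3 ± 1.52 and 35.9 ± 8.69 CPM, Ndufa7, at 31.2 ± 1.46 and 32.1 ± 12.7 CPM, and Ndufa12, at 7.36 ± 0.776 and 7.57 ± 3.99 CPM in CKO and control, had intervals within 2-fold.

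The Q module passes electrons to ubiquinone. Ndufs7, which carries the last iron-sulfur cluster before ubiquinone, averaged 55.8 ± 1.88 CPM in the CKO and 72.2 ± 31.6 CPM in the controls, with 107 CPM in control replicate 2. The iron-sulfur subunit Ndufs8 and the core subunit Ndufs3 were at 44.5 ± 5.35 and 18.4 ± 0.896 CPM in the CKO, against 45.3 ± 10.1 and 20.0 ± 6.89 CPM in the controls. The accessory subunit Ndufa9, which binds a nucleotide near the ubiquinone site, averaged 85.8 ± 4.02 CPM in the CKO and 78.3 ± 18.3 CPM in the controls (log2 fold change 0.13, 95% interval -0.29 to 0.55, edgeR adjusted p = 0.952), and Ndufa5 averaged 41.7 ± 1.90 and 40.2 ± 16.1 CPM.

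In the proximal membrane arm, 6 of 8 tested subunits had negative log2 fold changes, with a median of -0.09. Without control replicate 1 the count was 3 of 8 with a median of 0.04, without control replicate 2 it was 4 of 8 with a median of 0.01, and without control replicate 3 it was 7 of 8 with a median of -0.20. Ndufa3, a small subunit of a single membrane span, was at 14.1, 14.1 and 13.3 CPM in CKO replicates 1 to 3 and at 41.7, 12.04 and 16.3 CPM in control replicates 1 to 3. Control replicate 1 stood apart, and the other controls lay on either side of the CKO. The log2 fold change was -0.75 ± 0.42 (SE, 95% interval -1.74 to 0.23, edgeR adjusted p = 0.902). It was -0.03 without control replicate 1, -1.05 without control replicate 2 and -0.93 without control replicate 3. The second of these fell under an unadjusted p of 0.05. Ndufa1, which has the shortest transcript of the members at 419 bases, was at 39.7, 35.2 and 33.3 CPM in CKO replicates 1 to 3 and at 44.0, 16.4 and 22.7 CPM in control replicates 1 to 3. Its log2 fold change of 0.38 ± 0.33 (SE, edgeR adjusted p = 0.940) was 0.88 without control replicate 1 and 0.13 without control replicate 2. The first of these fell under an unadjusted p of 0.05. Ndufa13, also known as GRIM-19, averaged 31.1 ± 0.824 CPM in the CKO and 42.6 ± 19.7 CPM in the controls, with 64.0 CPM in control replicate 2 (log2 fold change -0.45 ± 0.30, SE, edgeR adjusted p = 0.924). It was -0.02 without that library and -0.68 without control replicate 3, in that case under an unadjusted p of 0.05.

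Ndufa8, a subunit held by disulfides in the intermembrane space, was at 48.0, 47.8 and 47.6 CPM in CKO replicates 1 to 3, against 56.9, 62.9 and 36.0 CPM in control replicates 1 to 3, the smallest ratio of highest to lowest library among CKO values of any member, 1.01. Ndufa10, a subunit related to nucleoside kinases, averaged 89.4 ± 1.35 CPM in the CKO and 91.2 ± 15.8 CPM in the controls. Ndufa11, Ndufc1 and Ndufc2 averaged 23.6 ± 3.14, 21.4 ± 2.42 and 59.1 ± 1.93 CPM in the CKO, against 24.9 ± 6.98, 22.9 ± 6.35 and 56.4 ± 28.7 CPM in the controls.

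In the distal membrane arm, 5 of 11 subunits had positive and 6 negative log2 fold changes, with a median of -0.04. Without control replicate 1 there were 9 positive and 2 negative, with a median of 0.13, without control replicate 2 there were 2 positive and 9 negative, with a median of -0.05, and without control replicate 3 there were 4 positive and 7 negative, with a median of -0.17. With libraries scaled by their totals 7 were positive and 4 negative, with a median of 0.04. Ndufb7, another subunit held by disulfides, was at 48.2, 41.9 and 45.4 CPM in CKO replicates 1 to 3 and at 61.6, 133 and 32.3 CPM in control replicates 1 to 3. Control replicate 2 was 4.12-fold above control replicate 3, and the CKO lay between them. The log2 fold change was -0.74 ± 0.44 (SE, edgeR adjusted p = 0.910). It was -0.87 without control replicate 1, -0.04 without control replicate 2 and -1.07 without control replicate 3, the last under an unadjusted p of 0.05. Ndufb8 was at 96.5, 82.4 and 90.9 CPM in CKO replicates 1 to 3 and at 128, 57.2 and 67.4 CPM in control replicates 1 to 3. Here control replicate 1 was high and replicate 2 low, with a log2 fold change of 0.09 ± 0.29 (SE, edgeR adjusted p = 0.972). It was 0.53 without control replicate 1, -0.11 without control replicate 2 and -0.02 without control replicate 3, the first under an unadjusted p of 0.05.

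Ndufb2 had the largest positive log2 fold change of the members, 0.39 ± 0.30 (SE, edgeR adjusted p = 0.940), from 22.0, 21.1 and 22.7 CPM in CKO replicates 1 to 3 and 25.8, 12.1 and 12.3 CPM in control replicates 1 to 3. Without control replicate 1 it was 0.84 ± 0.14 (SE, edgeR adjusted p = 0.0675), the smallest adjusted p of any member under any alternative, and it was 0.22 without control replicate 2 and 0.24 without control replicate 3. Ndufab1, the mitochondrial acyl carrier protein, averaged 10.1 ± 1.18 CPM in the CKO and 8.48 ± 3.56 CPM in the controls, and Ndufb4 averaged 5.44 ± 0.208 and 4.57 ± 3.14 CPM. Ndufab1 had a log2 fold change of 0.25 ± 0.31 (SE, 95% interval -0.48 to 0.98, edgeR adjusted p = 0.946), which was 0.57 without control replicate 1 and -0.02 without control replicate 2. Ndufb4 had a log2 fold change of 0.25 ± 0.46 (SE, 95% interval -0.82 to 1.31, edgeR adjusted p = 0.958), which was 0.91 without control replicate 1 and -0.12 without control replicate 2. Ndufb3, Ndufb5, Ndufb6, Ndufb9, Ndufb10 and Ndufb11 had log2 fold changes between -0.26 and 0.17 and intervals within 2-fold.

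**Figure D3:**
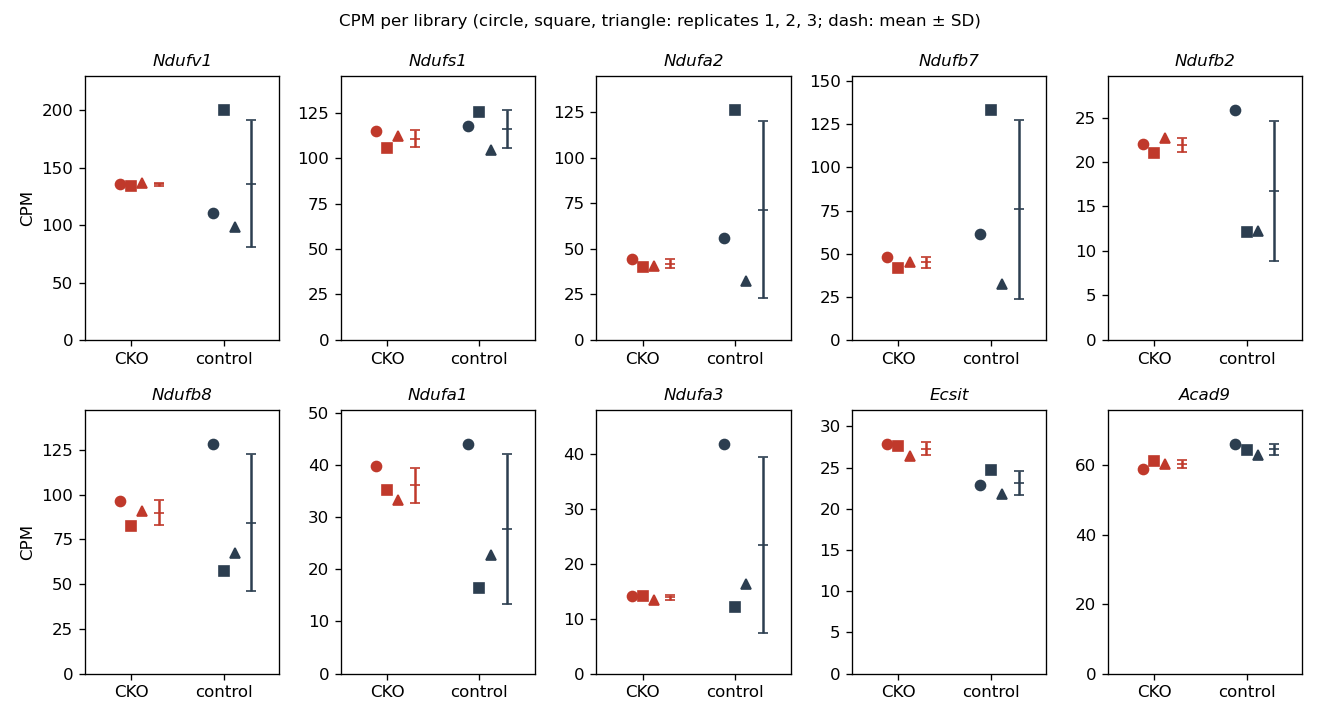
CPM of 10 complex I genes in each library, CKO left of control, with circles, squares and triangles for replicates 1, 2 and 3 and a dash with bars for the mean and SD. Control replicate 2 was high for Ndufv1, Ndufa2 and Ndufb7 and low for Ndufa1 and Ndufb8, and control replicate 1 was high for Ndufa3, while the CKO points lie close together in each panel.

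Among the controls the assembly factors varied less than the subunits, with a median SD of log2 CPM of 0.225 against 0.499. In the CKO these medians were 0.054 and 0.066. Assembly factor transcripts were also longer, with a median of 1661 against 875 bases, and the part of length in this contrast was not tested. Among the MCIA factors, Ecsit and Acad9 were the members whose libraries did not overlap between genotypes, 1 higher and 1 lower in the CKO, where 12.6% of all tested genes did not overlap, 5.74% higher and 6.91% lower. Ecsit, an adaptor protein of the MCIA group that also acts in innate immune signalling, was at 27.9, 27.6 and 26.5 CPM in CKO replicates 1 to 3 and at 22.9, 24.7 and 21.8 CPM in control replicates 1 to 3. Every CKO library lay above every control, with a log2 fold change of 0.24 ± 0.13 (SE, 95% interval -0.07 to 0.55, edgeR adjusted p = 0.896). It was 0.30 without control replicate 2 and 0.32 with libraries scaled by their totals (edgeR adjusted p = 0.334 and 0.767). Both fell under an unadjusted p of 0.05. Acad9, a member of the acyl-CoA dehydrogenase family that works in assembly, was at 59.0, 61.2 and 60.4 CPM in CKO replicates 1 to 3 and at 66.1, 64.5 and 63.0 CPM in control replicates 1 to 3. Every CKO library lay below every control, with a log2 fold change of -0.10 ± 0.12 (SE, 95% interval -0.37 to 0.18, edgeR adjusted p = 0.946).

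The other MCIA factors overlapped. Ndufaf1 averaged 18.6 ± 1.22 CPM in the CKO and 21.2 ± 5.02 CPM in the controls (log2 fold change -0.18 ± 0.20, SE, edgeR adjusted p = 0.941, and 0.03 without control replicate 2). Timmdc1 averaged 31.8 ± 1.90 CPM in the CKO and 36.1 ± 9.02 CPM in the controls. Tmem126b averaged 15.4 ± 0.481 CPM in the CKO and 14.3 ± 5.26 CPM in the controls, with 8.68 CPM in control replicate 2.

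None of the other 8 assembly factors passed the test. Ndufaf2, a paralogue of Ndufa12, averaged 20.0 ± 0.531 CPM in the CKO and 19.2 ± 5.13 CPM in the controls. Ndufaf3 and Ndufaf4, which bind the early Q module together, averaged 16.7 ± 1.24 and 42.7 ± 3.46 CPM in the CKO, against 15.6 ± 3.19 and 37.6 ± 5.11 CPM in the controls. Ndufaf5 and Ndufaf7, known in human cells to modify arginines of complex I subunits, averaged 18.3 ± 1.51 and 33.4 ± 0.864 CPM in the CKO, against 19.9 ± 2.61 and 32.9 ± 2.10 CPM in the controls. Ndufaf6 averaged 8.995 ± 0.395 CPM in the CKO and 10.6 ± 2.22 CPM in the controls, with 13.2 CPM in control replicate 1 (log2 fold change -0.24 ± 0.19, SE, edgeR adjusted p = 0.940, and -0.05 without that library). Foxred1, an oxidoreductase, averaged 30.4 ± 2.65 CPM in the CKO and 30.2 ± 3.56 CPM in the controls. Nubpl was at 3.95, 3.88 and 4.05 CPM in CKO replicates 1 to 3 and at 3.81, 4.45 and 3.12 CPM in control replicates 1 to 3 (log2 fold change 0.06 ± 0.21, SE, 95% interval -0.42 to 0.55, edgeR adjusted p = 0.975). Ndufaf8 is listed under its older symbol 1810043H04Rik, outside the rule, and averaged 9.47 ± 0.412 CPM in the CKO and 10.2 ± 2.39 CPM in the controls.

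A list of 29 further genes holds those that serve complex I or the supply of iron-sulfur clusters and a few of neighbouring respiratory enzymes, and 26 were tested. None passed the test (edgeR, 2 at an unadjusted p under 0.05, against 6.58% of all tested genes), with 13 positive and 13 negative log2 fold changes and a median of 0.0025. The list holds iron-sulfur cluster genes such as Nfs1, a cysteine desulfurase, at 31.5 ± 1.41 CPM in the CKO and 24.2 ± 4.80 CPM in the controls (edgeR adjusted p = 0.807). Chchd4, an import factor of the intermembrane space, was at 29.5 ± 1.64 and 21.96 ± 4.69 CPM (edgeR adjusted p = 0.744). Nfu1 was at 13.7 ± 0.729 and 9.84 ± 2.75 CPM (edgeR adjusted p = 0.834). For Nfs1, Chchd4 and Nfu1 every CKO library lay above every control, where 5.74% of all tested genes were separated in this direction and 6.91% in the other. Ndufa4l2, a paralogue of Ndufa4 induced by hypoxia, was at 33.3, 34.2 and 33.8 CPM in CKO replicates 1 to 3 and at 40.2, 80.7 and 55.7 CPM in control replicates 1 to 3, without overlap (log2 fold change -0.80 ± 0.24, SE, edgeR adjusted p = 0.408). Of 17 regulators of respiratory chain genes, 14 had negative log2 fold changes, as had 8040 of all 14609 tested genes. An unadjusted p under 0.05 (edgeR) was found for 2 of the 17 and for 6.58% of all tested genes. Thap11, the floxed gene itself, is counted in both and was the one called. Pprc1, a coactivator of the PGC-1 family, was at 52.6, 53.99 and 56.8 CPM in CKO replicates 1 to 3 and at 64.0, 135 and 82.3 CPM in control replicates 1 to 3, without overlap (log2 fold change -0.78 ± 0.26, SE, edgeR adjusted p = 0.505). Hcfc1 was also lower without overlap (log2 fold change -0.29 ± 0.15, SE, edgeR adjusted p = 0.875). Nrf1, a transcription factor of many respiratory chain genes, averaged 84.8 CPM in the CKO and 95.2 CPM in the controls (edgeR adjusted p = 0.940).

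The control libraries were more spread than the CKO libraries, a difference that was counted but not tested. The SD of log2 CPM was higher among the controls than among the CKO libraries for 49 of 49 members, against 87.5% of all tested genes. The median SD of the members was 0.064 in the CKO and 0.418 in the controls, compared with 0.098 and 0.326 over all tested genes. The highest CKO library exceeded the lowest by 1.09-fold in the median member and by at most 1.31-fold, for Ndufa11. Among the controls the median was 1.74-fold, the highest was 4.46-fold, for Ndufb4, and 17 members exceeded 2-fold, whereas 0 did in the CKO. These ratios and counts are given without those of all tested genes. All 3 CKO libraries lay inside the range of the controls for 42 of 49 members, against 52.6% of all tested genes.

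**Figure D4:**
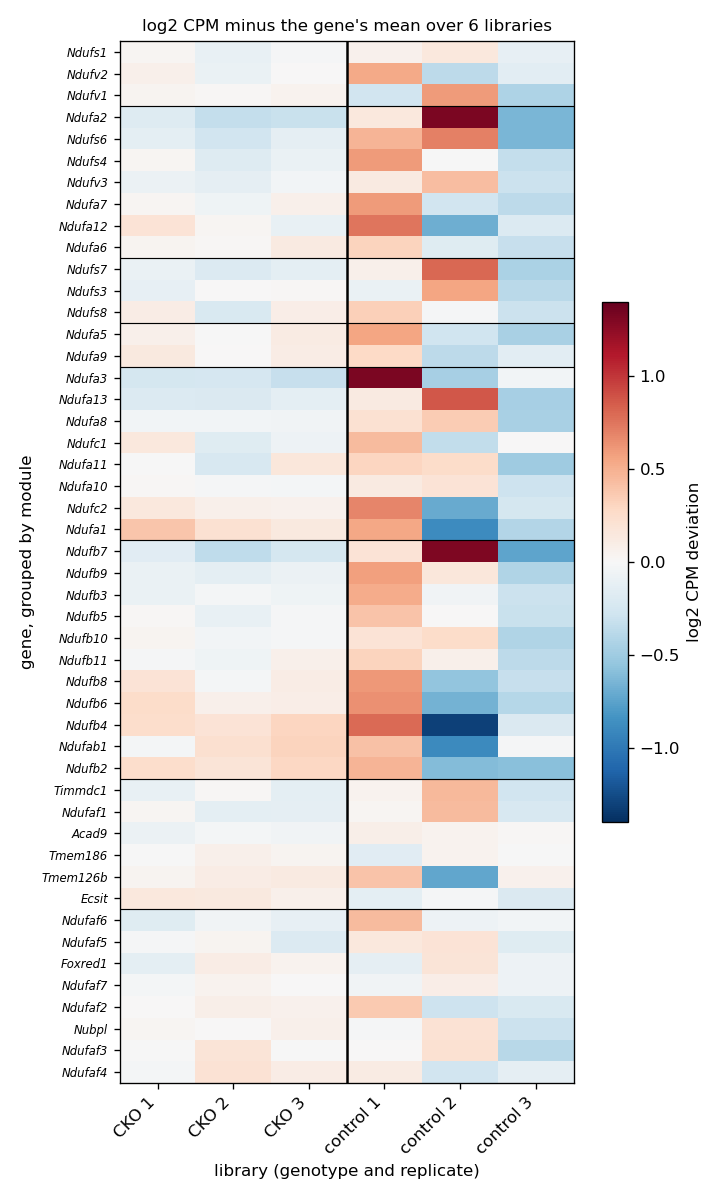
Log2 CPM of 48 of the 49 tested complex I genes minus the mean of each over the 6 libraries, with CKO libraries left of the black line and controls right of it, and genes grouped by module from N module core at the top to other assembly factors at the bottom. Over all 49, control replicate 1 was above the mean for 42 members and control replicate 3 for 3, while the CKO columns are pale.

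Subunits deviated mostly upward in control replicate 1, mostly downward in control replicate 3, and in both directions in control replicate 2. The median deviation of the 35 subunits from their mean over 6 libraries was 0.02, -0.04 and 0.0064 log2 units in CKO replicates 1 to 3, against 0.40, -0.02 and -0.34 in control replicates 1 to 3. Subunit transcripts summed to 1865, 1737 and 1821 CPM in CKO replicates 1 to 3 and to 2273, 2047 and 1465 CPM in control replicates 1 to 3, means of 1808 ± 65.0 and 1928 ± 417 CPM (SD, n = 3 per group). Assembly factors summed to 361, 385 and 368 CPM in CKO replicates 1 to 3 and to 382, 386 and 341 CPM in control replicates 1 to 3. Control replicate 1 was above the mean for 33 of 35 subunits and control replicate 3 for 1 of 35. In control replicate 2, 16 of 35 subunits were above the mean, and its deviations spanned -1.31 for Ndufb4 to 1.32 for Ndufa2, so that its sum took in deviations in both directions.

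Other gene groups moved with these libraries. Median deviations in control replicates 1, 2 and 3 were 0.52, 0.19 and -0.30 for 74 cytosolic ribosomal protein genes, 0.40, 0.13 and -0.30 for 15 subunits of ATP synthase, and 0.55, -0.37 and -0.23 for 11 subunits of cytochrome c oxidase. For all tested genes they were 0.02, 0.02 and 0.01. Periocular mesenchyme markers summed to between 52.5 and 74.5 CPM in the CKO and to 71.8, 185 and 76.6 CPM in control replicates 1 to 3. Pigment epithelium markers summed to between 30.3 and 35.9 CPM in the CKO and to 73.1, 43.7 and 34.8 CPM in control replicates 1 to 3. In each list 5 of 8 markers had enough reads and 0 were called, and the part of such cells in the deviations was not tested. The shifts also moved with transcript features. The tested members have a median transcript length of 1082 bases and a median GC content of 51.3%, against 2934.5 bases and 50.8% over all tested genes with an annotated transcript. Across the 49 members, the deviation in control replicate 1 had a Pearson correlation of -0.55 with log2 transcript length and that in control replicate 3 one of 0.62, so that short transcripts were high in replicate 1 and low in replicate 3. The deviation in control replicate 2 had a correlation of 0.44 with GC content, and that in control replicate 3 one of -0.59. Over all 13210 tested genes with an annotated transcript these correlations were -0.18, 0.37, 0.51 and -0.21. Points within a panel share a library, genes are not independent replicates, and the part of length and GC content in the differences was not tested.

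**Figure D5:**
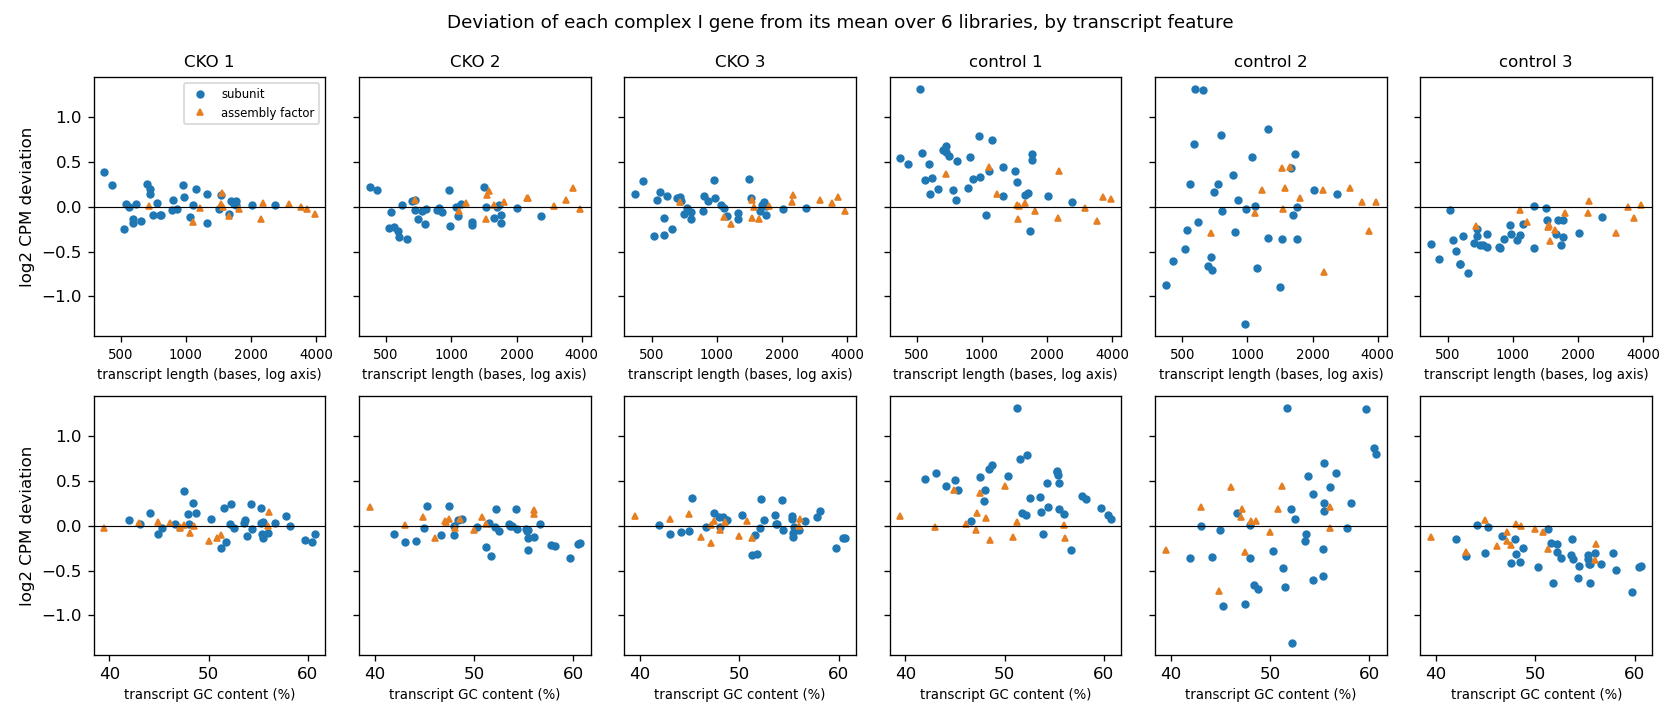
Deviation of each tested complex I gene from its mean over 6 libraries (log2 CPM) against transcript length in bases on a log axis (upper row) and transcript GC content in percent (lower row), 1 column per library with CKO left of control, subunits as circles and assembly factors as triangles. Points of the CKO libraries stay near 0, those of control replicate 3 rise with length (correlation 0.62), and those of control replicate 2 scatter widely.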

How the data were processed

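Polyadenylated retinal RNA was sequenced in 3 CKO and 3 control libraries, grouped by sample title. The authors deposited 1 table of raw read counts per gene symbol. The build mm9 and the tools HTSeq 0.5.4p3, DESeq 2.13 and BWA 0.7.6a-r433 are named, without roles, per the submitters' processing notes. No source used here says whether strand was kept, and reads of overlapping or antisense genes therefore cannot be told apart. Of the table's lines, 3 of a version-control conflict and 1 blank were skipped, and 1 repeated gene with identical counts was kept once. No library pair agreed within sampling noise (lowest chi-square per degree of freedom 5.94).

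Counts were fitted whole in R 4.3.3 with edgeR 4.0.16: filterByExpr (minimum count 10) left 14609 genes, TMM scaled the libraries, and the quasi-likelihood F test compared genotypes with Benjamini-Hochberg adjustment over all tested genes (threshold 0.05). Log2 fold changes are CKO over control, with SE obtained from the fold change and its F value, and 95% intervals from the t distribution. Deviations use log2 CPM with a prior count of 2. Transcript length and GC content come from 1 GENCODE M21 transcript per symbol (GRCm38), and promoter windows from RefSeq (GRCm38.p6), both matched by symbol only because the counts are on mm9. Alternatives were DESeq2 1.42.0 size factors, library totals, DESeq2's Wald test, limma-voom (limma 3.58.1), 2 other filters, a block for the replicate number, omission of each library and, chosen after seeing the data, removal of GC and length trends by splines with 4 degrees of freedom. The fit was tried on simulated counts that gave both genotypes the same spread, so that trial does not cover the wider spread of the controls.

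Members and lists were chosen with earlier results of these data known. Fold changes and tests were printed for the 5 members with the smallest p, the 3 most positive and 3 most negative fold changes, the 3 highest and lowest levels per kilobase, separated members changed by at least 0.5 (there were none), and Ndufs1, Ndufv1, Ndufa9, Ndufb8, Acad9 and Ndufaf1; 1 tested member that the rule takes in is not reported here by itself.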

Additional observations from a re-analysis of the deposited data

How the results depend on the processing

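No complex I gene was called under any of the 15 alternatives, and the smallest adjusted p of a member with all libraries kept was 0.550 (Ndufa1, GC and length trends removed). The subunit median lay between -0.15 and 0.11 and the assembly factor median between -0.011 and 0.11, so that both took either sign. Intervals within 2-fold were found for 37 to 48 members, and for 60.1% to 82.3% of all tested genes. With GC and length trends removed, a setting chosen after seeing the data, members with such intervals numbered 45 and the median SE of the members was 0.158 against 0.216. In that setting 3 members (Ecsit, Ndufa1 and Ndufa3) fell under an unadjusted p of 0.05 (edgeR), and the share of all tested genes under it is not given. Counts over all genes moved more, with causes that were not tested: 326 genes (117 higher, 209 lower) passed in DESeq2's Wald test, removal of the GC trend called 45 higher, and removal of GC and length trends called 208, of which 58 were higher. Leaving out 1 library gave 16 to 219 calls, 6 to 72 higher and 10 to 147 lower. The shorter motif form was in the windows of 2 members in place of 1, 4.55% of the members beside 4.12% of the tested genes with a window.

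Of the 17 members chosen by the rule for printed tests, 10 kept their sign under every alternative, and the 7 that did not had log2 fold changes between -0.18 and 0.25 with all libraries. Ndufv1 turned positive with DESeq2 size factors (0.014), library totals (0.088), DESeq2's Wald test (0.014), limma-voom (0.070), no filter (0.00057), the replicate block (0.070) and the GC (0.099) and GC and length (0.081) corrections, Ndufs1 with library totals (0.012), and Nubpl turned negative with GC and length removed (-0.044). Leaving out 1 library gave -0.15 to 0.39 for Ndufv1, -0.10 to 0.0076 for Ndufs1, -0.025 to 0.21 for Nubpl, -0.020 to 0.57 for Ndufab1, -0.11 to 0.53 for Ndufb8, -0.12 to 0.91 for Ndufb4 and -0.29 to 0.031 for Ndufaf1. Same-numbered libraries correlated at 0.34, 0.11 and -0.0073 in their deviations from the group means, so the numbers were not treated as pairs, and not every library correlated best with its own number. With the replicate block 153 genes and 0 members were called. The lowest read numbers of tested members were those of Nubpl, at 82 to 114 reads per library, and Ndufb4, at 41 reads in control replicate 2.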
